A study of Arabidopsis thaliana with 6 samples.

Results

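The EAR-motif ERF genes of Arabidopsis thaliana encode small DNA-binding proteins that repress transcription. The 8 genes described here are ERF3 (AT1G50640), ERF4 (AT3G15210), ERF7 (AT3G20310), ERF8 (AT1G53170), ERF9 (AT5G44210), ERF10 (AT1G03800), ERF11 (AT1G28370) and ERF12 (AT1G28360). They were examined for binding by JAGGED (JAG), a transcription factor with a C2H2 zinc finger that is needed for petals, sepals and leaves to grow out fully. A peak was assigned to one of these genes if its summit, the position of its maximum, lay in the gene or within 3000 bp of it. By this rule 18 of 6890 deposited peaks belonged to the genes, 6 of 2620 in the list of replicate 1, 8 of 2143 in that of replicate 2 and 4 of 2127 in that of replicate 3. They merged into 7 regions around 5 of the 8 genes. The genes were themselves chosen by the presence of peaks in these lists, so counts and scores are given as descriptions with no test.

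Proteins of the ERF family carry an AP2/ERF domain that recognises GCC-box sequences, and many act at the end of the ethylene signalling pathway. The members with an EAR motif (ERF-associated amphiphilic repression) recruit co-repressors such as TOPLESS and SAP18, which in turn bring histone deacetylases to the target gene. They dampen responses to ethylene, abscisic acid, jasmonate and pathogens. The EAR motif itself was not examined here, since no protein sequence was used.

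The immunoprecipitated plants carried a genomic JAG-GFP fusion under the JAG promoter (JAG:JAG-GFP) in the jag-2 mutant, and the control was wild-type L-er, which lacks the tag. There were 3 samples of each. Each sample was 1300 to 1500 mg of inflorescence tips with unopened buds. The plants were grown with 16 h of light at 18 °C and 8 h of dark at 20 °C. A peak is an average over the cells of the tips that held JAG-GFP, and does not tell their types apart. Replicates are numbered in the labels, which do not state that each was grown separately, so differences between lists may be technical. They also do not name the wild-type sample set against each list. The tissue could not be checked against marker genes, because peaks measure binding and not expression. Each peak has a score, which is the authors' own value with no stated scale, and the list medians were 2.04, 2.08 and 2.12 in replicates 1, 2 and 3. Read depth is unknown, so a gene without a peak had none above the authors' threshold, whatever its occupancy. The list of replicate 3 ends on chromosome 1 at position 23827070, and all 8 genes lie before that point or on other chromosomes.

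Of the 8 genes, 5 had a summit in the list of replicate 1 (ERF4, ERF7, ERF9, ERF11 and ERF12), 4 in that of replicate 2 (ERF4, ERF7, ERF11 and ERF12) and 4 in that of replicate 3 (ERF4, ERF9, ERF11 and ERF12). Among all 25681 protein-coding genes examined, 17.0%, 13.8% and 14.6% had one in the same lists. A merged region with peaks of all 3 lists and its median summit within 3000 bp was found for 4 genes, ERF4, ERF7, ERF11 and ERF12, against 6.24% of all genes. With at least 2 lists the count was 5, with ERF9 added, against 12.0% of all genes. Counting the summit of each list by itself, 3 genes had one within 3000 bp in every list (ERF4, ERF11 and ERF12), against 6.73% of all genes, and 5 had one in at least 1 list, against 25.9%. ERF3, ERF8 and ERF10 had none in any list. The shares among all genes are given as background, and nothing is read from the difference, because the genes were picked with these peaks known.

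**Figure D1:**
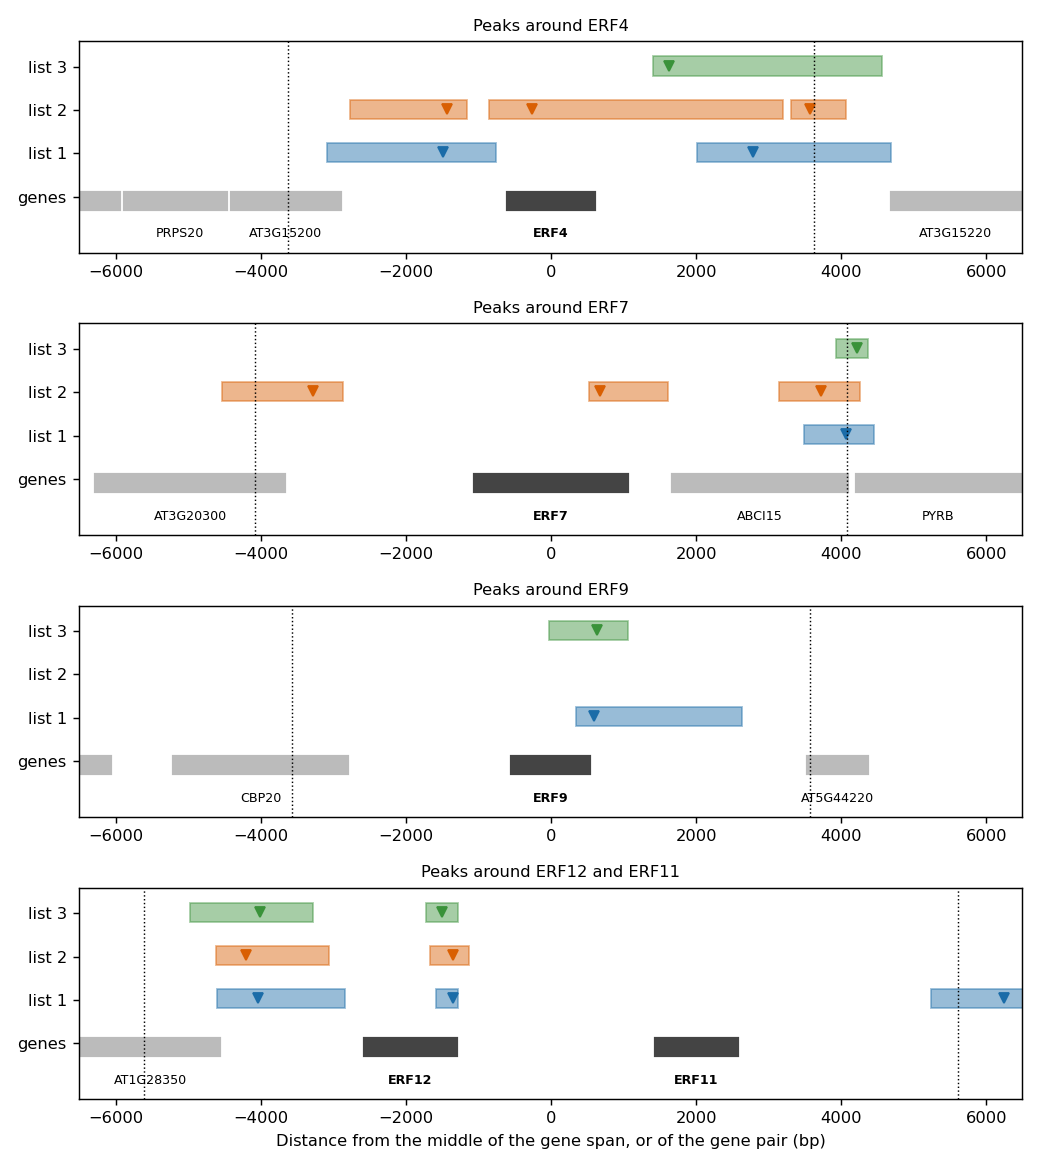
Peaks of the 3 lists (bars, with triangles at the summits; list 1, 2 and 3 are replicates 1, 2 and 3) around the 5 genes with a summit within 3000 bp, plotted by distance in bp from the middle of the gene or gene pair. Dark boxes are the ERF genes, grey boxes other protein-coding genes and dotted lines the limits of 3000 bp. The summits of the 3 lists lie within 193 bp of each other beside ERF12 and are spread over 1932 bp for the highest peaks at ERF4.

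ERF12 and ERF11 are neighbours on chromosome 1. ERF12 has been studied as a repressor in seed dormancy and in flower development. ERF11 limits ethylene synthesis and promotes internode growth. ERF12 had 2 regions of all 3 lists, and each of the other 7 genes had 1 or none. The first (chromosome 1, 9949394 to 9951531) scored 2.46, 2.54 and 2.68 in replicates 1, 2 and 3, with ranks of 361, 346 and 359. It was in the upper 14.0%, 16.2% and 17.1% of the lists by score. All 3 lists thus placed it well above their medians, and its mean score of 2.56 ± 0.11 (SD, n = 3 lists) was the highest of the 4 regions of all 3 lists near these genes. That mean, like every mean of scores here, assumes a scale common to the lists. Among all 869 regions of the genome with peaks of all 3 lists it ranked 306th, and the median of those regions was 2.36.

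The summits of that first region lay 1431, 1592 and 1399 bp from ERF12, on the side of lower coordinates, in replicates 1, 2 and 3. They were 193 bp apart at most, and 1333 bp of the region were covered by a peak in every list. The nearest protein-coding gene was not ERF12, however, but AT1G28350 on the other side, 496 bp from the median summit. From ERF11 the same summits were 5411 to 5604 bp away, beyond the limit.

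The second region (chromosome 1, 9952646 to 9953237) had its summits inside ERF12 in all 3 lists. It scored 1.90, 2.21 and 1.93, with ranks of 2155, 751 and 1756. Replicate 2 was the high one, and replicates 1 and 3 lay near the bottom of their lists, where 84.0% and 83.5% of peaks scored as high or higher. Its peaks were narrow, at 310, 540 and 447 bp, against list medians of 1032.5, 982 and 976 bp, and 147 bp separated the outermost summits. This weak region is also the one through which ERF11 was counted, at 2757, 2757 and 2904 bp from that gene. No list had a summit in ERF11 or nearer to it. With the shared region counted once, the pair therefore had 2 regions of all 3 lists, 1 near both genes and 1 near ERF12 alone.

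ERF4, on chromosome 3, was the broadest case. Its product represses ethylene and abscisic acid responses and modulates jasmonate defence. The 6 peaks around it chained into 1 region of 7786 bp (chromosome 3, 5118840 to 5126625), the widest of all 869 regions of all 3 lists, whose median width was 1750 bp. Replicate 1 had a peak on the lower side, 864 bp from ERF4 with a score of 1.98, and one on the higher side at 2154 bp with 2.36. Replicate 2 had a peak on the lower side at 802 bp with a score of 2.13, a peak of 4058 bp with its summit in the gene and a score of 2.12, and one on the higher side at 2936 bp with 2.28. Replicate 3 had only a peak on the higher side, at 1004 bp with a score of 2.06. Only the replicate 2 peak of 4058 bp joined the lower and higher sides, so the full width of 7786 bp rested on 1 list. The 3 lists thus agreed on the neighbourhood and not on a common summit.

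The highest peaks of the 3 lists at ERF4 had their summits spread over 1932 bp, whereas the median spread in regions of all 3 lists was 118 bp, and 8.63% of these regions exceeded 1000 bp. A total of 1944 bp was inside a peak in every list, all of it on the higher side of ERF4. It was not continuous, because replicate 2 had a gap there between peaks, from 5125134 to 5125242. The peak of 4058 bp ranked 8th by width among the 2143 peaks of replicate 2. That of 3155 bp ranked 33rd of 2127 in replicate 3. Scores were ordinary, with a mean of 2.23 ± 0.16 (SD, n = 3 lists) for the highest peak of each list, the 573rd of the 869 regions. AT3G15220 was nearer to the median summit than ERF4, at 1874 bp against 2154 bp. The highest summits of replicates 2 and 3 lay inside the annotated non-coding RNA genes AT3G03035 and AT3G00330.

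ERF7, also on chromosome 3, is known as a repressor of abscisic acid responses under drought. Its only region of all 3 lists (chromosome 3, 7088949 to 7090265) scored 1.99, 2.10 and 1.88 in replicates 1, 2 and 3, with ranks of 1486, 966 and 2064. The summits lay 2990, 2645 and 3131 bp from ERF7, so that of replicate 1 was just inside the limit and that of replicate 3 just outside. The region was counted because its median summit was the one at 2990 bp. That summit was inside ABCI15 and 105 bp from PYRB, which encodes an enzyme of pyrimidine synthesis, and both are nearer than ERF7.

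Replicate 2 alone had 2 more peaks at ERF7. One had its summit in the gene (chromosome 3, 7086340 to 7087421, score 1.94). The other lay 2194 bp away on the lower side (7081275 to 7082943) with a score of 1.89, the lowest value of that list. Neither overlapped a peak of the other lists. A site inside ERF7 therefore rested on a single list.

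ERF9, on chromosome 5, has been described as a negative regulator of defence against fungi. It had the summits closest to a gene end, 17 bp from it in replicate 1 and 63 bp in replicate 3, both on the side of higher coordinates (chromosome 5, 17806940 to 17809608). The scores were 2.47 and 2.22, and the ranks 342 and 843. The score in replicate 1 was the highest there of all peaks near these genes. Replicate 2 had no peak at ERF9, and its nearest summit was 21405 bp away. ERF9 was the nearest gene to this region.

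ERF3, ERF8 and ERF10 on chromosome 1 had no peak base within 3000 bp in any list. ERF3 is one of the genes in which the EAR motif was first defined, and ERF8 has been linked to cell death and leaf senescence. The nearest summits to ERF3 were 75927, 6844 and 16013 bp away in replicates 1, 2 and 3. Those to ERF8 were 16006, 16056 and 15944 bp away, with scores of 2.37, 2.53 and 3.15. Those to ERF10 were 25433, 12242 and 25354 bp away. All 9 distances exceeded 3000 bp more than 2-fold, so these genes did not miss the limit narrowly. The values just outside the limit were instead the summit at 3131 bp from ERF7 in replicate 3 and one at 3636 bp from ERF11 in replicate 1. The values just inside were 2904 bp for ERF11 in replicate 3, 2936 bp for ERF4 in replicate 2 and 2990 bp for ERF7 in replicate 1.

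**Figure D2:**
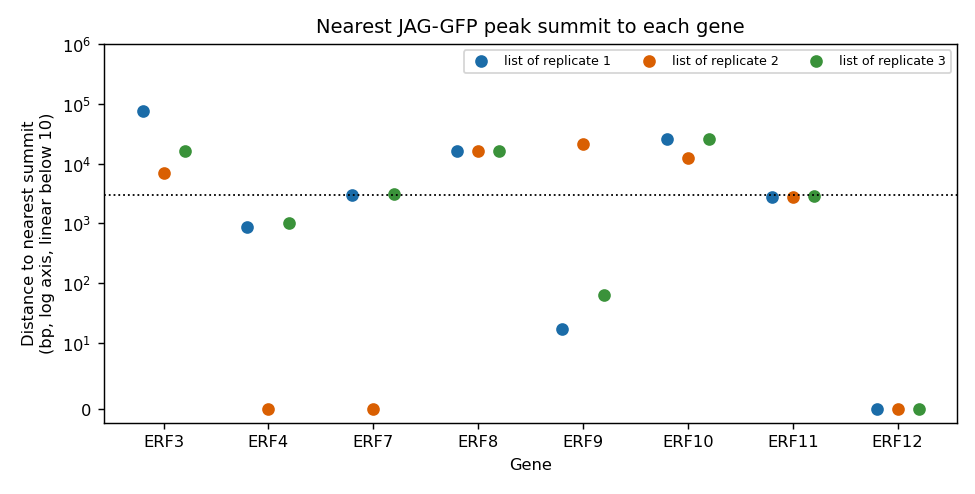
Distance in bp (log axis, linear below 10) from each of the 8 genes to the nearest peak summit in each list, with 0 for a summit inside the gene and a dotted line at 3000 bp. ERF12 is at 0 in all 3 lists, ERF4 and ERF7 only in replicate 2, and ERF3, ERF8 and ERF10 lie above the line in every list.

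The share of each window (the gene with 3000 bp on both sides) that lay inside peaks separated the genes further. At ERF4 it was 54.4%, 82.6% and 30.6% in replicates 1, 2 and 3, a mean of 55.9% ± 26.0 (SD, n = 3 lists). In replicate 2 no other of the 25681 windows was covered to a greater extent, and in replicates 1 and 3 the ERF4 window ranked 45th and 321st. The lists differed in extent, but all 3 covered more of it than of at least 98.7% of windows. Most windows held no peak base and the genes were picked with these peaks known, so nothing is read from these ranks. At ERF12 the share was 28.3%, 28.6% and 29.2%, a mean of 28.7% ± 0.46, the steadiest value among the 5 genes with peaks.

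ERF7 had 7.36%, 39.7% and 1.89% of its window in peaks, and ERF9 had 32.1%, 0% and 15.2%. Each of these genes thus depended on the list, with replicate 2 high at ERF7 and without a peak at ERF9. ERF11 had 9.48%, 6.44% and 4.43%. For all genes the median was 0% in every list, and 80.8%, 84.4% and 83.6% of windows held no peak base.

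**Figure D3:**
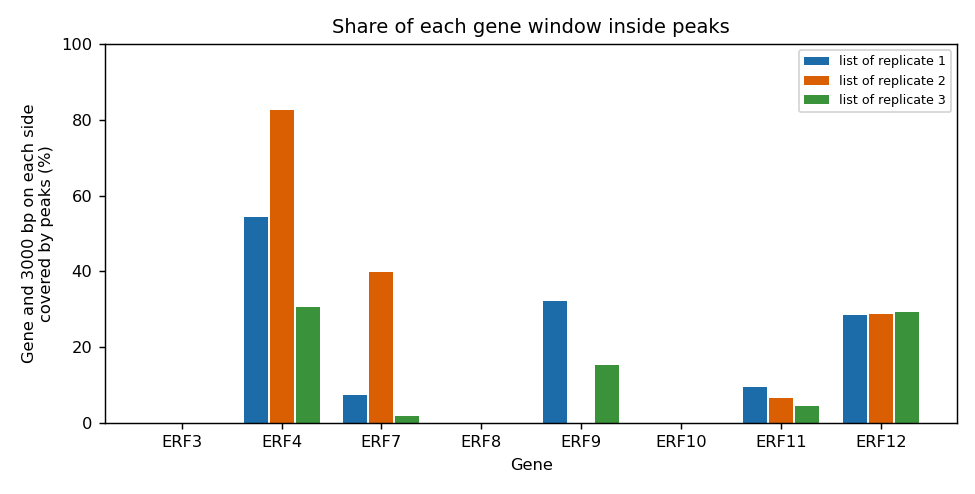
Percentage of each gene window (gene and 3000 bp on each side) inside peaks, with 1 bar per list. ERF4 ranges from 30.6% to 82.6%, ERF12 stays between 28.3% and 29.2%, and ERF3, ERF8 and ERF10 are at 0 in all lists.

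By score, the peaks near these genes were middling. Their median scores were 2.175, 2.125 and 2.14 in replicates 1, 2 and 3, against 2.04, 2.08 and 2.12 for all peaks of the same lists. Scores above the list median were found for 3 of 6, 6 of 8 and 2 of 4 peaks. The best ranks were 342, 346 and 359, so none came near the highest-scoring sites of the genome. Median widths were 2034, 1343.5 and 1394.5 bp, against 1032.5, 982 and 976 bp for the lists. These medians rested in part on ERF4, whose region gave 6 of the 18 peaks. Among the peaks near these genes, the widest of each list was at ERF4. The peaks inside ERF12 were narrower than the list medians, at 310, 540 and 447 bp.

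**Figure D4:**
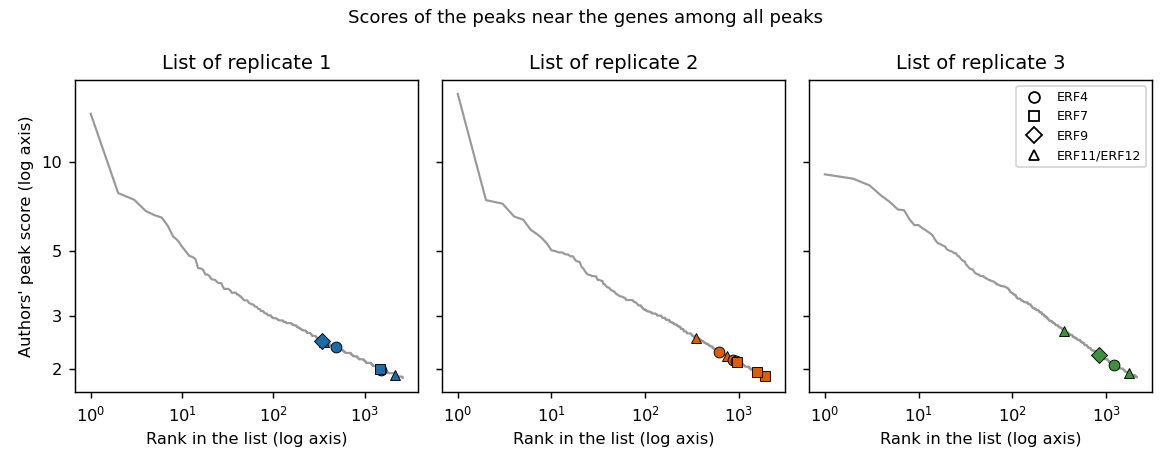
Authors' score against rank for all peaks of each list (grey line, both axes logarithmic), with the peaks near the ERF genes as symbols. The symbols have scores between 1.89 and 2.68, and the best of them rank 342nd, 346th and 359th.

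Gene length and spacing were not used by the rule. Of the 8 genes, 7 were shorter than the median of all genes examined (2076 bp), with ERF7 the exception at 2168 bp. The combined gap to the neighbouring protein-coding genes on both sides exceeded the median of 1890 bp for 7 of them, and the median over the 8 was 5698.5 bp. ERF8 had the widest gaps, 10724 bp in all, and ERF3 had 7961 bp. ERF4 had 6269 bp, and ERF10 had the narrowest gaps at 1334 bp. Whether gap size goes with peaks was not tested.

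The co-repressors that EAR motifs recruit were examined next. Of 10 such genes 9 could be examined, since TPR1 lies past the end of the replicate 3 list. Of these 9, 3 had a region of all 3 lists, against 6.24% of all genes. This list too was chosen with earlier results of these data known, so nothing is read from the difference. TPR3, a TOPLESS-related co-repressor, scored 2.37, 2.23 and 2.70 in replicates 1, 2 and 3 with summits 234 to 257 bp outside the gene (chromosome 5, 9515077 to 9515969). TPL, the TOPLESS gene itself, scored 2.12, 1.97 and 2.42 at its higher-coordinate end, with the summit inside the gene in replicate 1 and 118 and 318 bp outside it in replicates 2 and 3 (chromosome 1, 5420208 to 5422274). SAP18, a subunit of histone deacetylase complexes, scored 2.04, 2.33 and 1.95 with summits 453 to 530 bp outside the gene (chromosome 2, 18800690 to 18802236). In all 3 cases the co-repressor gene was the nearest gene. Mean scores were 2.43 for TPR3, 2.17 for TPL and 2.11 for SAP18, against a median of 2.36 for all regions of all 3 lists. HDA19, HDA6, SNL1, SNL2, TPR2 and TPR4 had no region of all 3 lists within 3000 bp.

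Ethylene synthesis and signalling lie ahead of the ERF proteins in the pathway. Of 11 genes of ethylene synthesis, 1 had a region of all 3 lists. It was ACO1, which encodes an enzyme of the last step, with scores of 1.88, 2.05 and 2.60 in replicates 1, 2 and 3 and summits 247 to 311 bp outside the gene (chromosome 2, 8474703 to 8475829). The median summit was inside the neighbouring gene TET2. Of 12 genes of ethylene perception and signalling 11 could be examined, and 0 had one. Of the 4 related ERF genes of the same group without the EAR motif (ESR1, ESR2, LEP and PUCHI), which act in organ initiation and meristem fate, 0 had one. These lists are small, and at 6.24% a count of 0 or 1 is close to the background.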

How the data were processed

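Chromatin immunoprecipitation with sequencing was done on 3 JAG-GFP and 3 wild-type samples. The authors deposited 3 peak lists, 1 per replicate number, with a start, end, width, summit and score for each peak, per the file headers. No source used here names the peak caller, its threshold, the scale of the authors' score or the wild-type sample set against each list. The score therefore served mainly to rank peaks within a list. Mean scores, and the ranks of regions by them, assume a scale common to the lists. Per the submitters' processing notes, bases were called with CASAVA 1.8 and coordinates are those of TAIR10. Library depth was not analysed here.

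Peaks of the 3 lists that overlapped by at least 1 bp were merged with pandas 2.3.3 in Python 3.11.15. Each list gave its highest peak in a merged region, and the median position of these summits was used. Distances were measured to gene spans in RefSeq's table for TAIR10.1, which lacks strand and whose coordinates are not printed. That table matched all 45 loci used, the 8 genes included. Chromosome 1 had no replicate 3 peak beyond 23827070. Protein-coding genes that start beyond it were left out, which left 25681 of 27444. The window and merging steps were tested on simulated data with known distances.

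The 8 genes and the related lists were chosen with earlier results of these data known, so counts are descriptions and no test was run. All 8 genes are named, and from each related list every gene with a region of all 3 lists, up to 5 by mean score. Planned searches for protein and promoter motifs were not run because no sequence was used here.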

Additional observations from a re-analysis of the deposited data

How the results depend on the processing

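The count of genes with a region of all 3 lists was 4, against 6.24% of all genes, and was recomputed under 12 other settings, 6 of which stayed within 1.5 times of it. It fell to 1 (ERF12) with a window of 1000 bp (3.21% of all genes) or 500 bp (2.23%), with the summit inside the gene (0.903%), with the highest-scoring 50% of each list (3.64%) and when only the nearest gene was counted (3.14%). Joining summits within 300 bp in place of overlapping peaks gave 2, ERF11 and ERF12 (5.01%). The count was 4 without each replicate in turn (8.24%, 8.61% and 7.83% of all genes without replicates 1, 2 and 3), but without replicate 2 ERF9 took the place of ERF7. Requiring each list's own summit within 3000 bp, a setting chosen after seeing the data, gave 3, without ERF7 (6.73%). ERF12 had a region in all 12 settings, ERF11 in 7, ERF4 in 6, ERF7 in 4 and ERF9 in 2. For ERF12 it was not the same region throughout. Only the weak region inside the gene (from 9952646) counted with windows of 1000 or 500 bp, the summit inside the gene or the nearest gene. With the highest-scoring 50% of each list, only the region beside the gene (from 9949394) counted. Per list, the count in replicate 1 went from 5 to 3 with a window of 1000 bp (9.66% of all genes) and with the highest-scoring 50% (9.29%). In replicate 2 it went from 4 to 3 (7.92%) and stayed at 4 (7.15%), and in replicate 3 it went from 4 to 2 in both (8.23% and 7.51%). Without 1 replicate, the mean share of a list scoring as high or higher ranged from 59.6% to 83.7% for the region in ERF12, highest without replicate 2. No paired analysis was possible because each list already stands for 1 replicate number and no test was run. The number of lists and the unknown depth limit what a missing peak shows.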

Other observations

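Some regions of all 3 lists lay beyond 3000 bp from genes of the related lists. The strongest was near PUCHI, an ERF gene without the EAR motif that acts in the control of organ initiation and floral meristem identity (chromosome 5, 6169774 to 6171019). It scored 2.92, 2.80 and 3.96 in replicates 1, 2 and 3, with ranks of 113, 219 and 59, higher in each list than any peak near the 8 EAR-motif genes. Its summits were 4425, 4514 and 4562 bp from PUCHI, and EMB269 was nearer to its median summit, at 1018 bp. A region at EIN2, a central component of ethylene signalling, scored 2.17, 2.14 and 2.17, with summits 4050 to 4093 bp away and inside LOG6. A region with its median summit inside AT1G01490 scored 2.43, 1.89 and 2.53, with summits 3459 to 3935 bp from ACS2, an enzyme gene of ethylene synthesis. ACS2 itself held 2 peaks of replicate 1 alone, with scores of 1.87 and 1.88.

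Other sites in these lists were found in 1 or 2 lists only. ACS6, another ethylene synthesis gene, had a region in replicates 2 and 3 with scores of 2.63 and 2.15 and summits 1335 and 1337 bp away. EIL1, a transcription factor gene of ethylene signalling, had one in replicates 1 and 3 with scores of 1.98 and 1.90 and summits 564 and 557 bp away. TPR2 had one in replicates 2 and 3 with scores of 1.91 and 1.89.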
